A study of Homo sapiens with 6 samples.

Results

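The DACH-, SIX- and EYA-family genes encode a set of interacting nuclear proteins, and 9 of them (DACH1, DACH2, SIX2, SIX4, SIX5, EYA1, EYA2, EYA3 and EYA4) were followed here among the 60609 genes in the count files. They were found by gene symbol, and all 9 had exactly the listed symbol in the files. DACH1 was chosen by its counts in these same libraries, which were 0 in each of the 3 WT libraries and 1520, 1475 and 1441 in the 3 Delta-TRRAP libraries. Its difference between the groups is therefore given as a description and was not tested. The other 8 genes were chosen as its family members and partners and are read from the fit across all genes.

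Poly(A) RNA was sequenced from K562 cells, an established human leukaemia line with erythroid features. In all 6 libraries endogenous EP400, the ATPase and scaffold subunit of the TIP60 acetyltransferase and remodelling complex, carried a homozygous dTAG degradation tag. The cells had received 500 nM dTAGV-1, the compound that removes the tagged protein, for 24 h. The 3 WT libraries came from cells that express a WT EP400 transgene from the AAVS1 safe-harbour site. The 3 Delta-TRRAP libraries came from cells with a transgene of EP400 that lacks the SANT and HD domains, which hold the TRRAP module on the complex. The comparison asks how steady-state RNA differs when TIP60 lacks TRRAP. The methods describe 1 clone of each line, so clone and genotype cannot be told apart. The libraries are called biological replicates, but nothing states that they came from separate cultures, and p-values measure only the spread between these libraries.

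The network is best known from the fly retina and, in mammals, from the forming eye, ear, kidney and muscle. SIX-family proteins are homeodomain factors that bind DNA. EYA proteins do not bind DNA themselves. They join SIX-family proteins as co-activators and also carry a tyrosine phosphatase that acts on histone H2AX. DACH proteins resemble the co-repressors SKI and SKIL, and can turn the output of SIX-family proteins towards repression.

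The 6 libraries held between 35076835 and 42616061 counts. Libraries differed far less within a group than between groups. The chi-square per degree of freedom over gene counts was 4.93 to 15.5 within and 131.2 to 157.2 between. The largest within a group was that of Delta-TRRAP replicates 2 and 3, and the next was 8.59. The mitochondrial share was 3.18 to 3.71% in WT libraries and 5.07 to 6.24% in those of Delta-TRRAP. EP400 itself had 4833, 5105 and 5285 counts in WT and 5642, 7009 and 4119 in Delta-TRRAP, and its groups overlapped. These counts sum the tagged gene and the transgene, so they do not check the labels. The labels call the cells lymphoblasts. All 12 erythroid markers examined were tested, with GATA1 at 5646 to 6735 counts, whereas the B cell marker MS4A1 was at 0 in all 6 libraries and 4 of 10 lymphoid markers were tested. Of the lymphoid markers, PTPRC, the leukocyte antigen CD45, was abundant and called lower. Summed over the erythroid list, normalized counts ranged from 227205 to 228213 in WT and from 156129 to 158401 in Delta-TRRAP. TFRC, which carries most of the sum, was called lower, from a mean of 193716 normalized counts in WT to 89385 in Delta-TRRAP. The lower sum is that of TFRC and not of the list. In that list ALAS2, HBZ, HBE1 and SLC4A1 were called higher. Whatever the fold, 6 of the 12 passed the adjusted p with higher values and 3 with lower ones. In bulk RNA, fewer cells of a type and less RNA per cell cannot be told apart, and this holds for every difference below.

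A normalized count is the count scaled by TMM, a library scaling based on most genes, to the geometric mean library size. Genes were called on 2 conditions, an adjusted p no higher than 0.01 in the edgeR quasi-likelihood F test (Benjamini-Hochberg) and at least a 2-fold difference. Of the 19114 genes tested, 16.5% were called higher and 6.08% lower in Delta-TRRAP, and whatever the fold 27.6% passed the adjusted p with a lower value and 30.7% with a higher one, 58.3% in all. Of the 9 members, 6 reached the mean normalized count of 5 needed for the test. DACH2, SIX2 and EYA1 did not. Because DACH1 and EYA2 reached it through Delta-TRRAP alone, 4 members would have been tested on WT values. Among the 5 tested members other than DACH1, EYA2 was called higher, SIX5 and EYA4 were called lower, and SIX4 and EYA3 passed the adjusted p with a smaller fall. For these 5 the values of the groups did not overlap, which was also so for 71.1% of all genes tested.

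Promoter sequences are shown for the gene that was at 0 in WT and counted in Delta-TRRAP (DACH1), for a SIX-family gene at 0 in both groups (SIX2) and for a SIX-family gene counted in both (SIX4). The RefSeq promoter table, on GRCh38.p14, held 6 of the 9 members. Each line gives the 250 bases before the annotated start, 5′ to 3′ on the gene's own strand, with CG dinucleotides in capitals.
DACH1, chr13:71867205-71867454 (-): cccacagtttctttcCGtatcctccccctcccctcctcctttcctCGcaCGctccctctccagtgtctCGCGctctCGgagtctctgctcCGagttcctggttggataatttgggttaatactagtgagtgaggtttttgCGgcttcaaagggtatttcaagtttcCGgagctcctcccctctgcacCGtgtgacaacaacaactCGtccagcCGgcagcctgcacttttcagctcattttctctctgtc
SIX2, chr2:45009453-45009702 (-): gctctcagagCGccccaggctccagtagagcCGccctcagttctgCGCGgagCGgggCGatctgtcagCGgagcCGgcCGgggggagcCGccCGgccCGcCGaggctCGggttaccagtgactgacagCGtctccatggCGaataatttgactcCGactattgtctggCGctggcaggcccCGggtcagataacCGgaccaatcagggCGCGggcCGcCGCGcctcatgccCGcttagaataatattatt
SIX4, chr14:60724352-60724601 (-): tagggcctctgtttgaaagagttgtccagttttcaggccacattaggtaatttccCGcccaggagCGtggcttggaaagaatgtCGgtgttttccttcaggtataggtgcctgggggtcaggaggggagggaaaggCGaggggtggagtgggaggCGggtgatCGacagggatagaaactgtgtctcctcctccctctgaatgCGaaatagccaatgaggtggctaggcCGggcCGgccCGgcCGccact

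The DACH1 window held 12 CG dinucleotides, the SIX4 window 11 and the SIX2 window 26. Over 35114 RefSeq promoters the median was 11, so DACH1 and SIX4 were close to it, and 17.7% of promoters had more than SIX2. Of the members not printed, DACH2 had 16, EYA3 20 and EYA4 36, and 3.998% of promoters had more than EYA4. Exact matches to a few short motifs were counted on both strands, none of which is contained in another. The GC box, spelled GGCGGG, was found in 42.5% of all promoters. SIX4 held 2 of them, SIX2 held 1 and DACH1 none. The box spelled CCAAT occurred 1 time in SIX4 and in SIX2 and in 32.01% of all promoters, and again DACH1 had no match. A GATA site with the letters AGATAA was present 1 time in SIX2, and in 9.17% of promoters in all. Neither DACH1 nor the SIX-family genes shown matched the TATA box TATAAA (10.7% of promoters). The same held for the palindromic E-box, which reads CACGTG (6.35% of promoters). Nor was there a match to the MEF3 site bound by SIX-family factors, whose letters are TCAGGTT (2.79% of promoters).

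Of the SIX-family members, SIX4 and SIX5 were expressed in both groups and both were lower in Delta-TRRAP. SIX4 is a homeodomain factor that acts in muscle and kidney. SIX4 (ENSG00000100625.9, chr14:60709539-60724351, minus strand) had 746, 727 and 698 normalized counts in the WT libraries and 370, 433 and 380 in the Delta-TRRAP libraries. Every Delta-TRRAP library was below every WT library. Its log2 fold change was -0.85 ± 0.07 (SE, n = 3 per group, edgeR adjusted p = 7.78e-08), which passed the p and not the fold of 2.

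SIX5 lies beside DMPK, the kinase gene of the myotonic dystrophy locus, and encodes another homeodomain factor. SIX5 (ENSG00000177045.10, chr19:45764785-45769252, minus strand) had 325, 296 and 338 normalized counts in WT and 114, 120 and 133 in Delta-TRRAP. The groups were separated by a wide gap. Its log2 fold change was -1.36 ± 0.10 (SE, n = 3 per group, edgeR adjusted p = 9.61e-09), and it was called lower. It kept this call whichever library was left out, with values between -1.42 and -1.31. SIX5 is overlapped on the other strand by the lncRNAs AC074212.1, with 15, 12 and 12 counts in WT and 3, 2 and 5 in Delta-TRRAP, and DM1-AS, with 10, 5 and 13 and then 14, 8 and 9. AC074212.1 was called lower (log2 -1.91 ± 0.43) and DM1-AS was not called (log2 0.15 ± 0.41). The counting used strand, so these reads were kept apart from those of SIX5.

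SIX2, which keeps kidney progenitors undifferentiated, had 0 counts in all 6 libraries, and a count of 0 allows up to 3 counts in a library. Its neighbour SIX3, 59.1 kb away, and SIX6 were at 0 as well.

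EYA3 was the most abundant member in both groups and showed the smallest fall. EYA3, like its paralogs, pairs the co-activator role with the phosphatase. EYA3 (ENSG00000158161.16, chr1:27970344-28088637, minus strand) had 3667, 3757 and 3848 normalized counts in WT and 3060, 3404 and 2854 in Delta-TRRAP. The groups did not overlap, although Delta-TRRAP replicate 2 came near the WT range. Its log2 fold change was -0.25 ± 0.06 (SE, n = 3 per group, edgeR adjusted p = 0.0029). The pass depended on scaling. With library size scaling the value was -0.12 (adjusted p = 0.106) and with upper quartile scaling -0.15 (adjusted p = 0.0352), and the adjusted p was 0.0116 without WT replicate 3 and 0.0131 without Delta-TRRAP replicate 1.

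EYA2 was silent in WT and counted in Delta-TRRAP. EYA2 (ENSG00000064655.19, chr20:46894624-47188844, plus strand) had 0 counts in each of the 3 WT libraries and 55, 39 and 54 in the Delta-TRRAP libraries. Normalized, the Delta-TRRAP values were 53.8, 37.2 and 57.0, with a mean of 49.3 ± 10.6 (SD, n = 3). Against a floor of 3 counts per library, EYA2 was at least 16.4-fold higher in Delta-TRRAP. It was called higher (edgeR adjusted p = 7.74e-08), and passed the filter on low counts only through Delta-TRRAP.

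An antisense transcript in EYA2 showed the same pattern. EYA2-AS1, listed in the files as AL354766.2, lies inside the span of EYA2 on the minus strand at chr20:46901143-46901726. Its start is 7.1 kb downstream of that of EYA2. It had 1, 0 and 0 counts in WT and 117, 123 and 122 in Delta-TRRAP. All 3 Delta-TRRAP libraries were far above the single WT count. The depth-scaled ratio of the summed counts was 358, with an exact 95% counting interval of 63.9 to 14196 that covers counting error only. It was called higher (edgeR adjusted p = 6.33e-11), and like EYA2 passed the filter on low counts only through Delta-TRRAP. In Delta-TRRAP there were 2.13, 3.15 and 2.26 antisense counts for each EYA2 count in the 3 libraries. Per exon length the difference was larger, with a level of 7.30 ± 0.46 for EYA2-AS1 and 0.351 ± 0.075 for EYA2 (CPM per kilobase of merged exons, SD, n = 3). The other 4 genes that overlap EYA2 had between 0 and 5 counts in a library.

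EYA4, known for its part in hearing and the heart, was close to the limit of detection. EYA4 (ENSG00000112319.19, chr6:133240514-133532128, plus strand) had 19, 13 and 14 counts in WT and 6, 8 and 6 in Delta-TRRAP. The groups did not overlap but lay only a few counts apart. Its log2 fold change was -1.18 ± 0.35 (SE, n = 3 per group, edgeR adjusted p = 0.00804), and it was called lower. The call was fragile. DESeq2 gave an adjusted p of 0.0446, and leaving out any library other than WT replicate 2 also ended the call, with values between -1.30 and -0.99. TARID, the antisense lncRNA that overlaps EYA4, had 0 counts in WT and 3, 2 and 1 in Delta-TRRAP, which is within the floor.

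EYA1, a gene of ear and kidney development, had 0, 0 and 1 counts in WT and 1, 1 and 0 in Delta-TRRAP. It was not detectable above the floor in either group. EYA3 therefore supplied nearly all the EYA message. Summed per length over the 4 EYA genes, EYA3 made up 99.8% ± 0.04 in WT and 97.1% ± 0.78 in Delta-TRRAP (SD, n = 3).

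**Figure D1:**
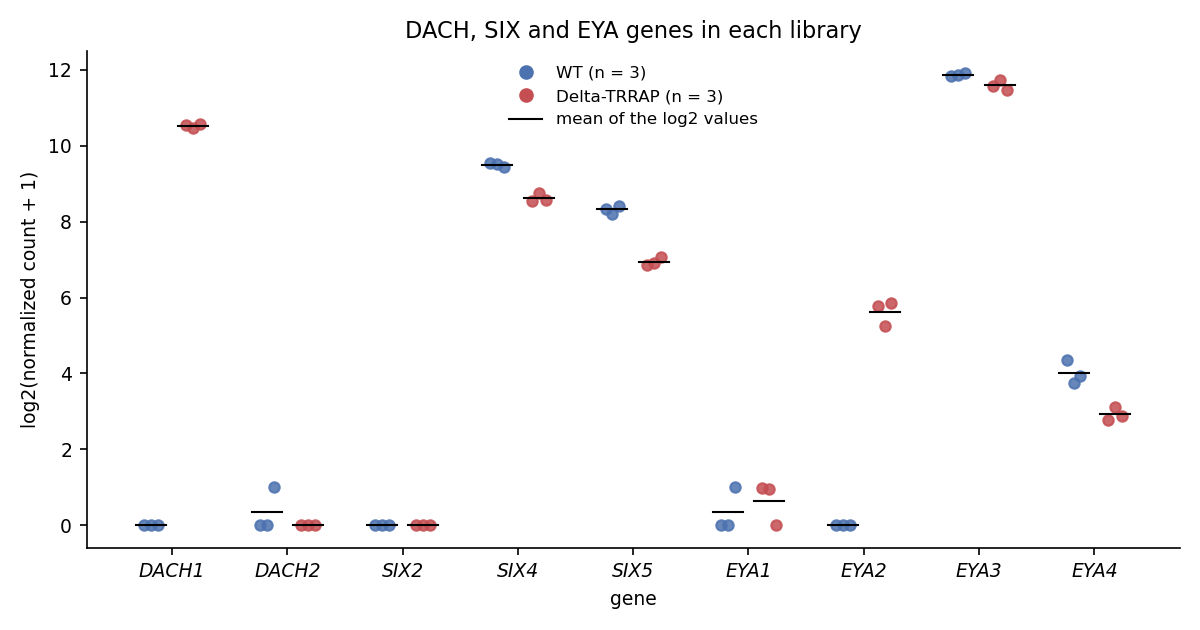
Points are the log2 of the normalized count + 1 of each of the 9 genes in the 3 WT and 3 Delta-TRRAP libraries, and black bars are means of these values. DACH1 and EYA2 sit at 0 in WT and above 0 in every Delta-TRRAP library, whereas SIX4, SIX5, EYA3 and EYA4 are lower in Delta-TRRAP.

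Of the DACH genes, DACH1 had the highest Delta-TRRAP level of all genes that were silent in WT. DACH1 is a co-repressor that has been described as a tumor suppressor. DACH1 (ENSG00000276644.5, chr13:71437966-71867204, minus strand) had 1486, 1409 and 1522 normalized counts in the 3 Delta-TRRAP libraries, a mean of 1472 ± 57.8 (SD, n = 3), and 0 in every WT library. The Delta-TRRAP libraries differed little among themselves. Against the floor of 3 counts per library DACH1 was at least 491-fold higher. The floor is 0.0704 to 0.0751 CPM in the WT libraries. Of the 30348 genes without a WT count, 4737 had a count in Delta-TRRAP. DACH1 ranked 1 among them, followed by GJA1 with a mean of 546 normalized counts, and EYA2 ranked 10. That rank describes the choice of DACH1 and is not a result about it.

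DACH1 covers 13 merged exons. The 3 genes that lie within it in the annotation are processed pseudogenes on the opposite strand. H3F3BP1 had 7, 11 and 8 counts in WT and 9, 8 and 6 in Delta-TRRAP, so its groups overlapped (log2 -0.16 ± 0.38, SE). RPL21P109 and RPL35AP31 were at 0 throughout.

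DACH2, the X-linked paralog, had 0, 0 and 1 counts in WT and 0 in each Delta-TRRAP library. It was not detectable above the floor in either group. The DACH message in Delta-TRRAP was thus that of DACH1.

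Levels of different genes were compared as CPM per kilobase of merged exons, with CPM taken from TMM-scaled library sizes. In WT the order was EYA3 at 15.0 ± 0.36, SIX4 at 2.75 ± 0.09, SIX5 at 2.29 ± 0.15 and EYA4 at 0.0271 ± 0.0063 (SD, n = 3). No neighbours in this order overlapped over the 3 libraries. In Delta-TRRAP EYA3 was at 12.4 ± 1.11, DACH1 at 6.66 ± 0.26, SIX4 at 1.497 ± 0.13, SIX5 at 0.880 ± 0.069, EYA2 at 0.351 ± 0.075 and EYA4 at 0.0116 ± 0.0016. DACH1 thus stood below EYA3 and above both SIX4 and SIX5. The members did not overlap one another in this order either. These levels are descriptions and no test was made between genes.

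**Figure D2:**
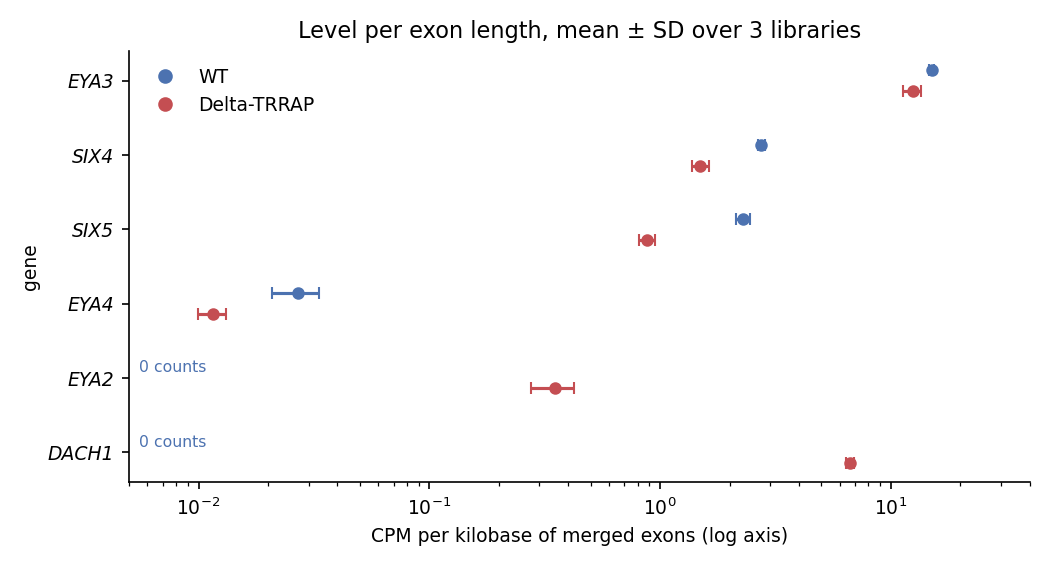
The log axis gives the level of each gene in CPM per kilobase of merged exons, as the mean and SD of 3 libraries in WT and Delta-TRRAP. DACH1 lies at 6.66 in Delta-TRRAP, below EYA3 at 12.4 and above SIX4 at 1.497, and genes at 0 counts in WT carry that label.

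The genes most like DACH1 over the 6 libraries were looked for by Euclidean distance of log2(normalized count + 1), which compares level and pattern together. They were GJA1 (distance 2.49), ACTA2 (2.75), COL1A2 (2.83), ARHGAP15 (3.72) and TAC3 (3.77). GJA1, the gap junction protein connexin 43, had 0 counts in WT and 559, 614 and 479 in Delta-TRRAP. ACTA2, the smooth muscle actin, had 0, 1 and 0 and then 537, 538 and 510. COL1A2, a chain of type I collagen, had 1, 4 and 0 and then 887, 947 and 788. All were near 0 in WT and far above it in Delta-TRRAP, as the measure requires. COL1A2 is also on the list of 10 fibroblast markers. Its sum ranged from 36.9 to 58.5 normalized counts over the WT libraries and from 919 to 954 over the Delta-TRRAP libraries, nearly all of it COL1A2 in the latter. Its part in the difference of DACH1 was not tested. LUM and PDGFRA were at 0 in all 6 libraries, THY1 had 1 count in a single library and COL1A1 had between 23 and 40 counts in WT libraries and between 25 and 39 in those of Delta-TRRAP. Of the list, 4 were tested and COL1A2 and PDGFRB were called higher, both tested through their Delta-TRRAP counts alone. Of the 10 endothelial and epithelial markers, 5 were tested and EPCAM was called lower (log2 -1.54 ± 0.06). Whatever the fold, 2 of these passed the adjusted p with lower values, EPCAM and PECAM1 (-0.75 ± 0.07). Another 2 passed it with higher values, KRT18 (0.67 ± 0.05) and KRT19 (0.87 ± 0.05).

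Genes around each member were examined next. Of all genes tested, 22.6% were called, 16.5% higher and 6.08% lower, and the calls around each member stand beside these shares. Within 1 Mb of DACH1, 5 genes were tested and 0 were called by edgeR, DESeq2 or limma-voom, although 4 passed the adjusted p of 0.01 in edgeR with lower values and the same 4 had an unadjusted p under 0.05. PIBF1 and DIS3, whose starts lie at -914.9 kb from that of DACH1 (negative is upstream), had log2 fold changes of -0.59 ± 0.05 and -0.44 ± 0.05. BORA, at -860.5 kb, and MZT1, at -860.4 kb, had -0.73 ± 0.05 and -0.59 ± 0.05 (SE, n = 3 per group). All 5 values were below 0, with a median of -0.59 beside 0.03 over all genes tested. The remaining gene, the pseudogene H3F3BP1 inside DACH1, was the only 1 tested within 0.5 Mb. Its log2 fold change was -0.16 ± 0.38 and its groups overlapped.

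Within 1 Mb of EYA2, 21 genes were tested, and 3 were called higher and 2 lower, beside 22.6% of all genes tested called. Of the 21 values 16 were below 0, with a median of -0.26 beside 0.03 over all genes tested. Besides EYA2-AS1, the lncRNAs AL162458.1, with 9, 7 and 7 counts in WT and 48, 44 and 42 in Delta-TRRAP (log2 2.53 ± 0.26), and AL133227.1, with 9, 6 and 6 and then 19, 39 and 26 (log2 1.99 ± 0.36), were called higher. Their starts lie at -959.6 and -530.1 kb from that of EYA2. PLTP, the phospholipid transfer protein gene, was called lower (log2 -1.56 ± 0.09), as was the low-count lncRNA AL031666.3, which passed the filter on low counts only through WT and whose call was lost without WT replicate 1 (adjusted p = 0.0181) or Delta-TRRAP replicate 1 (adjusted p = 0.0154).

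Around SIX4, 13 genes were tested and 3 were called lower, beside 6.08% of all genes tested called lower. Among them were the kinase gene PRKCH, with 66, 111 and 88 counts in WT and 9, 5 and 6 in Delta-TRRAP (log2 -3.69 ± 0.29), and the pseudogene AL132777.1 (log2 -1.03 ± 0.24). The pseudogene lost its call without WT replicate 1 (log2 -0.93) or Delta-TRRAP replicate 3 (log2 -0.97). SIX4 thus lay among neighbours of mixed direction, with a median of -0.01.

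SIX5 lies in a gene-dense region, where 65 genes were tested and the median was -0.35. Beside 6.08% lower and 16.5% higher among all genes tested, 12 of the 65 were called lower and 7 higher. The lower genes were AC074212.1, SNRPD2, a spliceosome subunit (log2 -1.19 ± 0.07), QPCTL (-1.96 ± 0.08), EML2-AS1 (-1.18 ± 0.17), FOXA3, a forkhead factor (-1.53 ± 0.09), CCDC61 (-1.01 ± 0.08), VASP (-1.28 ± 0.05), PPM1N (-1.14 ± 0.09), CD3EAP, a subunit of RNA polymerase I (-1.15 ± 0.05), ZNF296 (-1.32 ± 0.12), APOC1 (-1.14 ± 0.09) and APOE (-1.999 ± 0.06). The higher genes were IGFL2-AS1 (log2 5.00 ± 0.30), IGFL2 (2.73 ± 0.41), BHMG1 (2.33 ± 0.20), GPR4 (1.67 ± 0.51), the AP-1 gene FOSB (1.71 ± 0.20), PPP1R13L (1.42 ± 0.13) and KLC3 (1.39 ± 0.25). IGFL2-AS1, IGFL2 and GPR4 passed the filter on low counts only through Delta-TRRAP, and AC074212.1 only through WT. GPR4 lost its call when any 1 of the WT libraries was left out (adjusted p between 0.014 and 0.0317), and CCDC61 without WT replicate 1 or Delta-TRRAP replicate 2 (log2 -0.99 in both). DMPK, whose gene adjoins SIX5, went the other way, with 507, 438 and 480 counts in WT and 749, 790 and 770 in Delta-TRRAP (log2 0.71 ± 0.08, edgeR adjusted p = 9.04e-07). Its groups did not overlap, and it was under the fold of 2.

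Around EYA3, 48 genes were tested, with a median of -0.06, and 4 were called higher and 6 lower, beside 22.6% of all genes tested. RCC1, the Ran exchange factor, was called lower (log2 -1.32 ± 0.05), and SNORD99 was also lower (log2 -1.40 ± 0.21). IFI6 (log2 1.34 ± 0.14), TRNP1 (1.46 ± 0.22) and the lncRNAs AL009181.1 (1.83 ± 0.32) and AL353622.1 (1.06 ± 0.20) were higher. The other lower genes were THEMIS2 (log2 -1.004 ± 0.07), TENT5B (-1.09 ± 0.24), AL031729.1 (-1.24 ± 0.30) and ACTG1P20 (-1.09 ± 0.32). Each of these 4 lost its call without at least 1 library. The value was -0.996 for THEMIS2 without Delta-TRRAP replicate 1 and -0.98 without WT replicate 2, -0.97 for TENT5B without WT replicate 1, and -0.98 for AL031729.1 without Delta-TRRAP replicate 2 and -0.96 without WT replicate 2. ACTG1P20 had an adjusted p between 0.0117 and 0.0351 without WT replicate 2, WT replicate 3, Delta-TRRAP replicate 1 or Delta-TRRAP replicate 3. AL353622.1 lost its call without Delta-TRRAP replicate 3 (log2 0.82).

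Around EYA4, 11 genes were tested, and 4 were called higher and 2 lower, beside 22.6% of all genes tested called. SLC2A12, a glucose transporter, had 83, 96 and 88 counts in WT and 834, 899 and 720 in Delta-TRRAP (log2 3.21 ± 0.09). SGK1, a stress-responsive kinase, had 385, 391 and 387 and then 1145, 1044 and 1085 (log2 1.504 ± 0.07). VNN2 (log2 4.86 ± 0.22) and LINC01010, with 0, 2 and 0 counts in WT and 8, 21 and 11 in Delta-TRRAP, were higher. The small nucleolar RNAs SNORA33 (log2 -1.44 ± 0.12) and SNORD100 (log2 -1.15 ± 0.28) were lower, the latter not without WT replicate 1 (log2 -0.90) or Delta-TRRAP replicate 1 (log2 -0.92). LINC01010 passed the filter on low counts only through Delta-TRRAP.

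Near EYA1, DACH2 and SIX2, which were not tested themselves, 3 of 22 tested genes were called, beside 22.6% of all genes tested. The ion channel gene TRPA1, near EYA1, was called lower with 488, 563 and 449 counts in WT and 73, 103 and 67 in Delta-TRRAP (log2 -2.61 ± 0.12), and 1 of 7 genes was called. KLHL4 near DACH2 was called lower (log2 -1.37 ± 0.14; 1 of 8 genes). LINC01121 near SIX2 was called higher, from 2, 2 and 1 counts to 27, 19 and 20 (log2 3.64 ± 0.44; 1 of 7 genes), and passed the filter on low counts only through Delta-TRRAP.

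**Figure D3:**
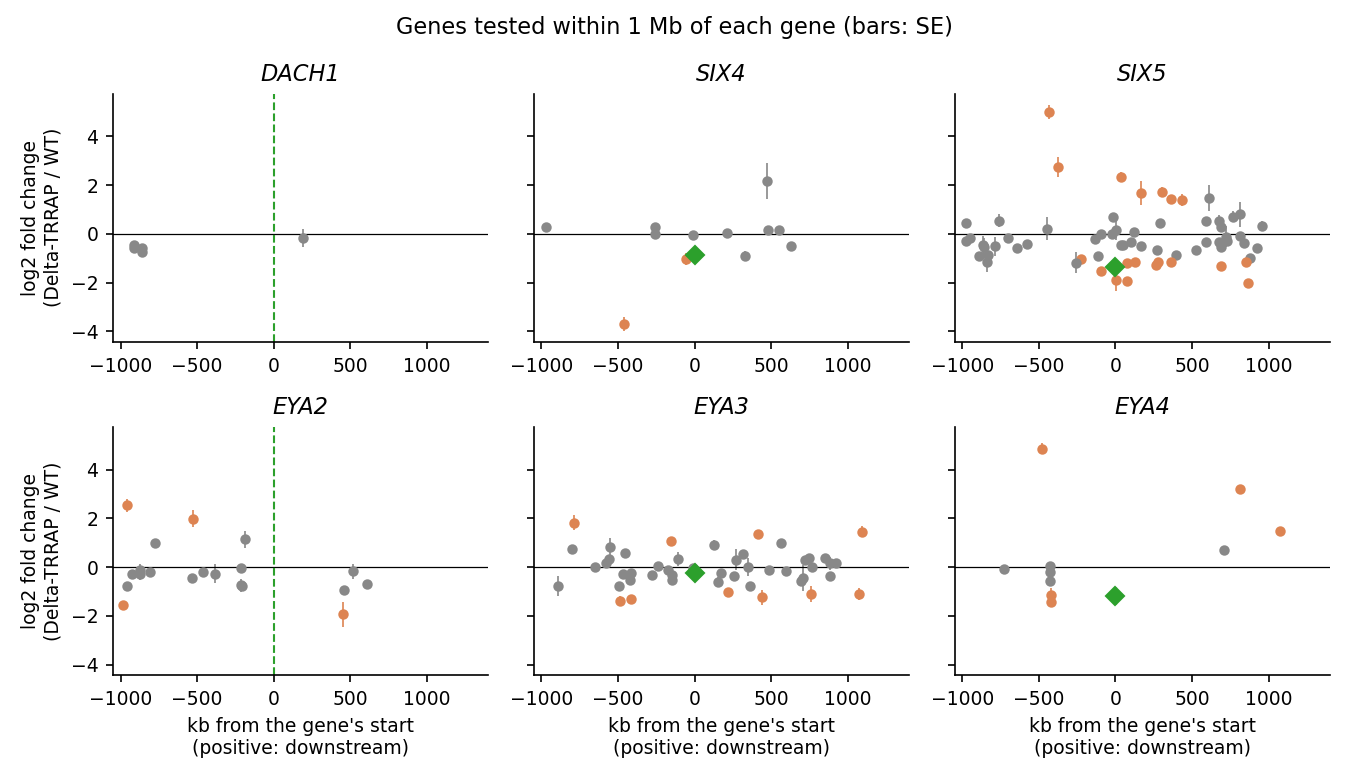
Each point is a tested gene within 1 Mb of the member named above the panel, with its log2 fold change (Delta-TRRAP over WT, bars SE) against the distance of its start from the start of the member in kb, positive in the direction of transcription. Orange points were called and grey ones were not, green diamonds are the members, and a dashed line marks DACH1 and EYA2, which have no fold against 0 counts. EYA2-AS1 and LINC01010 are not drawn because WT held 1 and 2 counts of them. A gene not reported here is left out. The 5 genes around DACH1 lie below 0.

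The wider network was described by 6 lists of 66 genes, of which 48 were tested. Of these 48, 14 were called, or 29.2%, beside 22.6% of all genes tested. Among the 14, PAX3 and IGFBP5 passed the filter on low counts only through Delta-TRRAP, and the study named CCND1 from these samples. The share is therefore not a result about the lists. The lists are given by their counts and medians, and the median over all genes tested was 0.03. The co-repressor relatives of DACH1 that were tested moved in different directions. SKI, with a mean of 2812 ± 71.3 normalized counts in WT and 2214 ± 67.6 in Delta-TRRAP, had a log2 fold change of -0.32 ± 0.05, and SKIL, with 2706 ± 111 and 4304 ± 145, had 0.69 ± 0.05. Both passed the adjusted p (4.74e-05 and 1.62e-08, edgeR) and neither reached the fold of 2. SKOR1 did not pass (log2 0.59 ± 0.40).

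PAX factors stand upstream of SIX- and EYA-family genes in the eye, ear and muscle, and 4 of the 9 were tested. PAX3, a regulator of muscle and neural crest, had 0, 2 and 0 counts in WT and 138, 148 and 120 in Delta-TRRAP. It was called higher, having passed the filter on low counts only through Delta-TRRAP, and the ratio was 201, with an exact 95% counting interval of 55.3 to 1665. PAX9 was called lower, with 241, 283 and 275 counts in WT and 85, 109 and 89 in Delta-TRRAP (log2 -1.49 ± 0.11). PAX6, which heads the network in the eye, had 626, 622 and 631 counts and then 384, 401 and 365 (log2 -0.70 ± 0.07, edgeR adjusted p = 1.96e-07). PAX8 did not pass (log2 0.21 ± 0.15). Of the 4, none had overlap of its groups except PAX8, beside 71.1% of all genes tested without overlap.

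Of 13 co-repressors and co-activators that DACH-, SIX- or EYA-family proteins are known to bind, 12 were tested, 1 was called higher and 0 were called lower by edgeR (1 by DESeq2 and by limma-voom), 6 passed the adjusted p with lower values and 2 with higher values, and the median was -0.25. TLE4, a Groucho co-repressor, was called higher, with 26, 30 and 29 counts in WT and 122, 110 and 114 in Delta-TRRAP (log2 2.03 ± 0.16). HDAC1 (log2 -0.38 ± 0.05), HDAC3 (-0.46 ± 0.05), SIN3A (-0.38 ± 0.08) and TLE3 (-0.47 ± 0.06) passed the adjusted p with smaller falls.

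All 9 genes linked to the EYA phosphatase and to its tyrosine on H2AX were tested, of which 2 were called higher and 1 lower, with a median of -0.25. ESR2, the estrogen receptor beta, had 22, 17 and 22 counts in WT and 640, 616 and 544 in Delta-TRRAP (log2 4.88 ± 0.12). APBB1, an adaptor that reads phosphorylated H2AX, had 23.6, 14.5 and 14.4 normalized counts and then 138.8, 139.4 and 124.6 (log2 2.96 ± 0.19). MAPK8, the kinase JNK1, was called lower, with 5960, 6267 and 5975 counts and then 2391, 2474 and 2278 (log2 -1.34 ± 0.05). H2AX itself, listed as H2AFX, had a log2 fold change of -0.57 ± 0.05, and ATM, the kinase of the damage response, -0.74 ± 0.06, both with passed adjusted p and a fold under 2. The H2AX tyrosine kinase BAZ1B did not pass (log2 -0.25 ± 0.08, edgeR adjusted p = 0.0123).

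Of 16 genes reported as SIX- or EYA-family targets elsewhere, 9 were tested, 1 was called and the median was -0.27. The muscle genes MYOD1 and MYOG and the kidney gene GDNF had at most 1 count in a library. CDKN1A, the cell cycle inhibitor p21, was called higher, with 422, 450 and 469 counts in WT and 1075, 972 and 925 in Delta-TRRAP (log2 1.16 ± 0.07). SALL2 (log2 -0.46 ± 0.06), EZR (-0.45 ± 0.05), CCNA2 (-0.41 ± 0.05), CCNB1 (-0.27 ± 0.05) and GFI1 (-0.94 ± 0.14) passed the adjusted p with falls under the fold of 2. GFI1 reached it without WT replicate 1 (log2 -1.001) or Delta-TRRAP replicate 1 (log2 -1.07).

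Of 12 genes reported as DACH1 targets elsewhere, 10 were tested, 3 were called higher and 3 lower, and the median was 0.16. CCND1, cyclin D1, had 1646, 1874 and 1786 counts in WT and 77, 65 and 36 in Delta-TRRAP (log2 -4.89 ± 0.12, SE, n = 3 per group, edgeR adjusted p = 3.88e-14). The study named CCND1 from these samples, so it is no independent evidence for the list. FGF2 (log2 -1.20 ± 0.05) and SNAI1 (-1.13 ± 0.10) were also called lower, SNAI1 only just under the fold with library size scaling (log2 -0.996). CXCL8, or interleukin 8, had 313, 368 and 246 counts and then 833, 693 and 655 (log2 1.25 ± 0.11). IL6 (log2 2.08 ± 0.17) and IGFBP5, with 0, 4 and 3 counts and then 61, 73 and 69 (log2 4.80 ± 0.37), were called higher as well, and IGFBP5 passed the filter on low counts only through Delta-TRRAP. CDKN1B, a cell cycle inhibitor (log2 -0.54 ± 0.05), and YBX1, a nucleic acid-binding protein (-0.499 ± 0.05), passed the adjusted p with falls under the fold of 2. JUN had a log2 fold change of 0.96 ± 0.05, and reached the fold of 2 with library size scaling (log2 1.09). FOS had 0.83 ± 0.16 and reached it without Delta-TRRAP replicate 1 (log2 1.02). EGFR was too low for the test, with 0, 1 and 0 counts in WT and 8, 10 and 11 in Delta-TRRAP. The list thus held called genes in both directions.

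**Figure D4:**
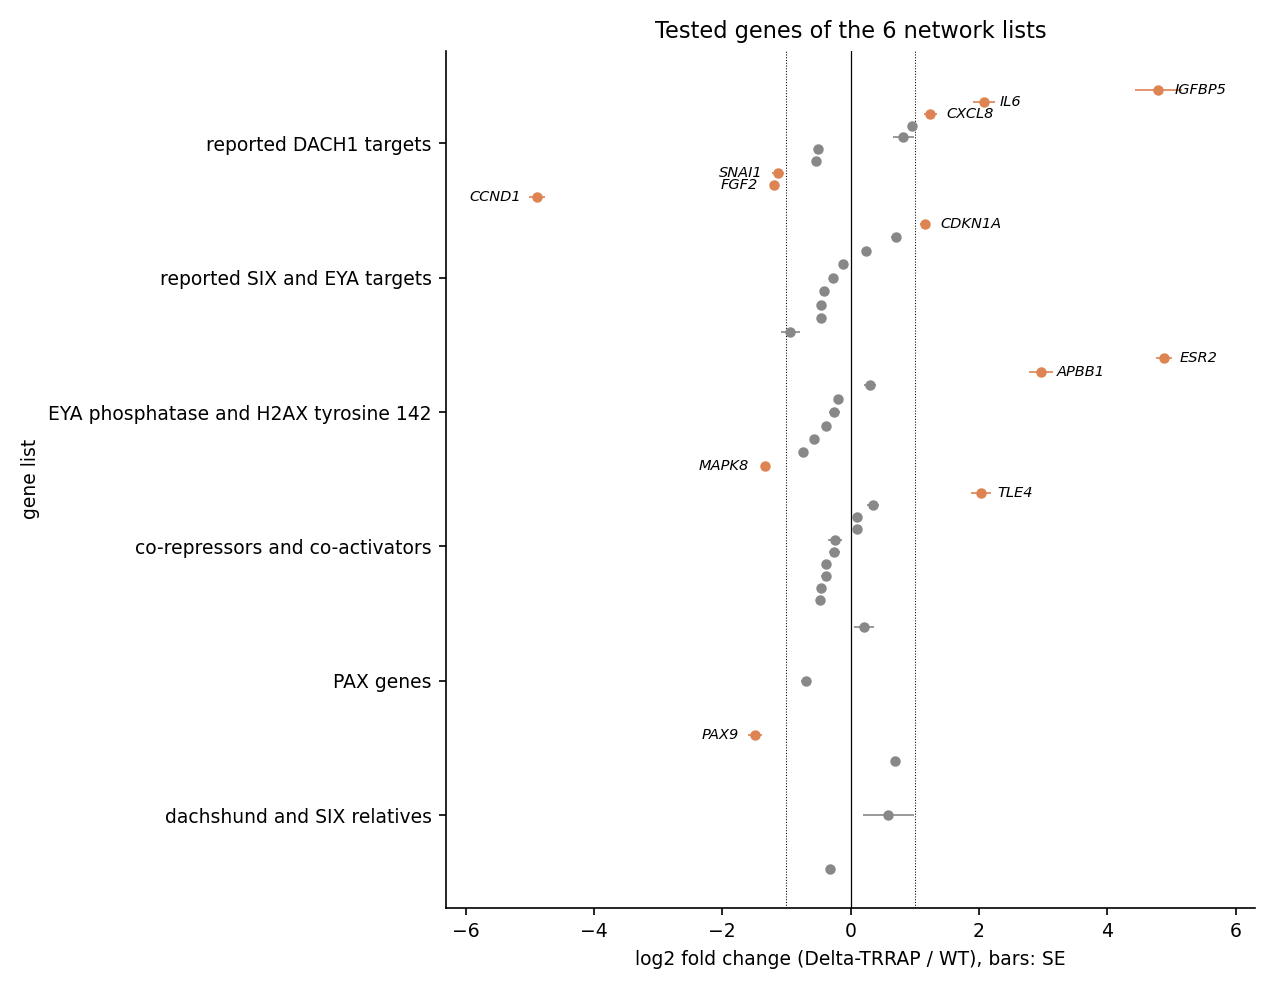
Points are tested genes of the 6 lists with their log2 fold change (Delta-TRRAP over WT, bars SE), orange where called and grey where not, and dotted lines mark a fold of 2. PAX3 is not drawn because WT held 2 counts of it, and a few genes not reported here are left out. CCND1 at -4.89 and ESR2 at 4.88 lie farthest from 0 among the drawn genes.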

How the data were processed

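RNA-seq counts per gene were analysed for 3 WT and 3 Delta-TRRAP libraries. The deposited counts were made by the authors from reads mapped uniquely to hg38 with STAR 2.7.10b and counted per GENCODE release 32 gene with HTSeq 2.0.2 in reverse-stranded union mode; reads of near-identical copies were thereby lost. The authors' normalized table, of which 3 of 9 columns belong to samples outside the series, and their table of fold changes and p-values were not used. Counts were fitted in edgeR 4.0.16 (R 4.3.3) with group as the only term and TMM scaling, leaving out genes whose normalized counts averaged below 5, and the fit was tested on simulated data. SE is the log2 fold change divided by the square root of F. The members and lists were chosen with earlier results of these data known. Named were the members, the called genes of the lists, the called genes within 1 Mb of a member and the 5 genes nearest to DACH1; genes of the lists that were not called were singled out after their values were seen. Some items of the lists are not reported here. Positions and lengths come from GENCODE release 44 on GRCh38, in which 19041 of 19114 tested genes had the same ID. Replicate numbers did not pair the libraries (correlations of same-numbered deviations between -0.0351 and -0.0108). The alternatives were RLE, library size and upper quartile scaling, DESeq2 1.42.0, limma-voom (limma 3.58.1), no filter or a minimum of 50, a fold of 1.5 or none, an adjusted p of 0.05, a replicate block, windows of 0.5 and 5 Mb, and each library left out. With 3 libraries per group, 35076835 to 42616061 counts each gave a floor of 3 counts per library for a count of 0.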

Additional observations from a re-analysis of the deposited data

How the results depend on the processing

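SIX5 kept its lower call under every scaling, test and left-out library. EYA2 also kept its higher call wherever it was tested. It had 0 counts in WT and passed the filter on low counts only through Delta-TRRAP, so this is no measure of stability. With a minimum mean of 50 EYA2 and EYA4 were not tested and 1 member other than DACH1 was called. EYA4 lost its call with library size scaling (log2 -1.05), upper quartile scaling (-1.08), DESeq2 (-1.20) and limma-voom (-1.12), and, leaving out 1 library each, ranged from -1.32 to -0.99. With the replicate number as a block EYA4 was at -1.18 (adjusted p = 0.017) and lost its call, 4184 genes were called in place of 4322, and no other member changed its call. Without a fold threshold SIX4 (-0.85) and EYA3 (-0.25) were called, making 5 members, and SIX4 was called at a fold of 1.5. Genes called numbered 1964 with a minimum mean of 50, 6750 at a fold of 1.5 and 11149 without a fold threshold, and those in the 6 lists 22 and 40 at the last pair of settings. Within 5 Mb of the members 163 genes were called, against 46 within 1 Mb. The wider window also held more tested genes, such as 280 against 65 around SIX5, and 22.6% of all genes tested were called. The rise in this count is therefore not a result about the members. With the length of the longest transcript the levels became 7.005 for DACH1 and 0.486 for EYA2 in Delta-TRRAP, 2.87 for SIX4, 2.46 for SIX5 and 16.1 for EYA3 in WT, and 0.0651 and 0.0278 for EYA4 in WT and Delta-TRRAP, since a shorter length divides the same counts. Library size and upper quartile scaling moved the median of all genes to 0.16 and 0.13, so values below 0 are smaller under them by about that much. For the other changes the cause was not tested. The depth limits EYA4, EYA1 and DACH2, whose counts are near the floor, and 1 clone per line limits all comparisons.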
